A study of Homo sapiens and Mus musculus with 4 samples.

Results

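The transcripts of 10 genes from 3 families of calcium- or sugar-binding proteins were followed in 4 lymphoid cell lines. These were the galectins LGALS1, LGALS3, LGALS8 and LGALS9, the S100 genes S100A4, S100A6, S100A10 and S100A11, and the annexins ANXA1 and ANXA2. Each was taken as the human gene in the human lines and as the mouse gene of the same symbol in the mouse lines, which gave 20 of the 60736 genes measured (10 of 32738 human and 10 of 27998 mouse). The symbols were selected with measured values of these same libraries in view, so the levels and ratios below describe the genes and test nothing.

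The libraries were bulk RNA-seq of messenger RNA, with 1 library for each line. Jurkat and TALL104 both come from human T-cell leukaemias. The study describes Jurkat as CD4+ T cells and grew it in RPMI medium, and it describes TALL104 as CD8+ T cells and grew it in IMDM with added interleukin-2. The mouse lines were EL4, from a T-cell lymphoma and cultured in RPMI with 2-mercaptoethanol, and IVA12, a hybridoma of B-cell type cultured in DMEM. All were established lines without a further treatment or genotype in the labels. Lines were compared within a species, and line, culture medium and library cannot be told apart.

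Galectins are lectins that bind galactose-containing sugars on glycoproteins. They are made in the cytosol, leave the cell by a route outside the classical secretory pathway, and on T cells they are known for crosslinking surface glycoproteins. S100 proteins are small EF-hand proteins that bind calcium and then dock on target proteins, and annexins bind acidic phospholipids of membranes when calcium is present. Some members act as pairs: S100A10 binds ANXA2, and S100A11 binds ANXA1.

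Values were given as FPKM, reads scaled by gene length and library size, and the reads behind each value were recovered from the steps between FPKM values. The totals ranged from 25286728 reads in IVA12 to 34783047 in Jurkat. Ranges in parentheses are exact 95% intervals for counting reads, which leave out differences between cultures, and with 1 library per line no test was possible. A gene was taken as detected at 1 FPKM or more and as higher in a line above 1.5-fold on FPKM + 1, and ratios named as folds are of the FPKM themselves. A gene with 0 reads was given the level of 3 reads as its limit. The T-cell markers (CD3D, CD3E, CD3G, CD2, CD5, LCK, ZAP70 and LAT) were detected 8 of 8 in Jurkat, TALL104 and EL4 and 2 of 8 in IVA12. The B-lineage markers were detected 5 of 8 in IVA12, with Cd79a and Pax5 among those below 1 FPKM, and 0 of 8 in EL4. In the human lines 2 of 8 were detected in Jurkat and 3 of 8 in TALL104.

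In the human pair, 9 of the 10 genes were higher in TALL104 and 1, LGALS9, was higher in Jurkat. Over all human genes, 11.4% were higher in TALL104 and 13.8% in Jurkat. Of the genes detected in one or both human lines, the shares were 28.4% and 34.2%. In the mouse pair, 7 of the 10 were higher in the T-cell line EL4, 1 (S100a10) was higher in the B-lineage line IVA12, and Lgals3 and S100a11 passed in neither direction. Over all mouse genes 9.75% were higher in EL4 and 11.2% in IVA12, and of the mouse genes detected in one or both lines 23.8% and 26.5%. Because the symbols were selected on these libraries, nothing was read from the gap to these shares.

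The median log2 ratio over the members was -1.77 for Jurkat over TALL104 and 4.30 for EL4 over IVA12, on FPKM + 1, beside a median of 0.00 over all genes of either species. Over the 9465 human genes at 1 FPKM or more in both lines, the median log2 ratio of the FPKM was 0.11 toward Jurkat, and each human log2 ratio below lies on top of that shift. The summed level of the 10 genes was 83.2 FPKM in Jurkat and 652 FPKM in TALL104, and 1553 FPKM in EL4 and 23.3 FPKM in IVA12. All 10 human members were detected in TALL104 and 7 in Jurkat. Among the mouse members, 7 were detected in EL4 and 4 in IVA12. Of all 32738 human genes, 10822 were detected in TALL104 and 10857 in Jurkat. Of all 27998 mouse genes, 9596 were detected in EL4 and 9809 in IVA12. In bulk RNA, fewer cells with a transcript and less of it per cell cannot be told apart.

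**Figure D1:**
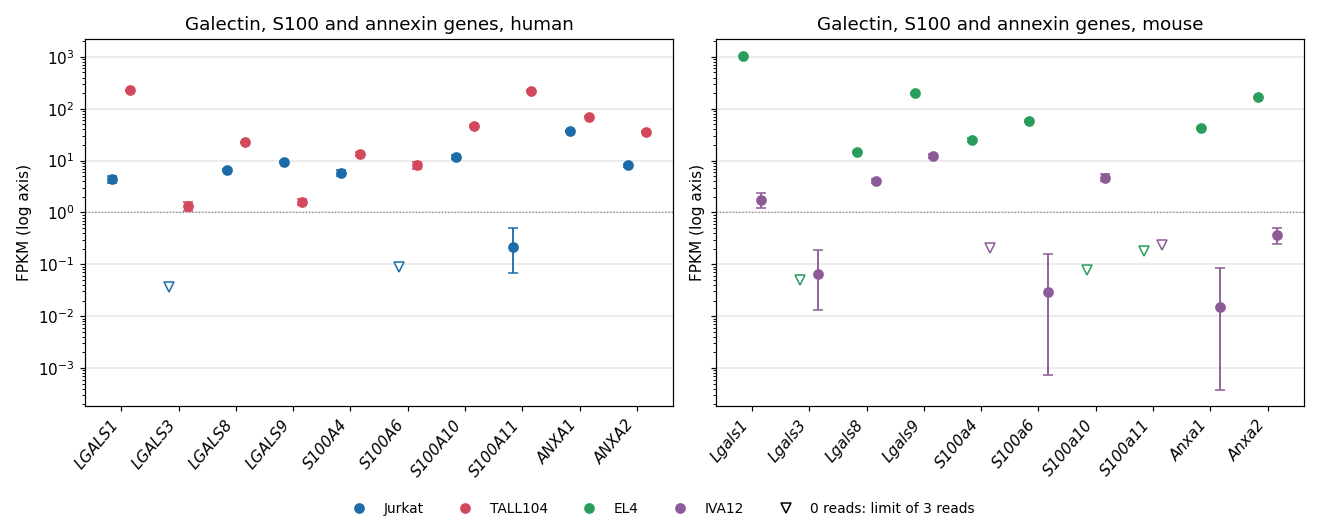
FPKM of each gene on a log axis, human lines on the left and mouse lines on the right; points are single libraries, bars are exact 95% counting intervals, open triangles mark 0 reads at the level of 3 reads, and the dotted line is 1 FPKM. TALL104 lies above Jurkat for each human gene except LGALS9, and Lgals1 in EL4 is the highest point at 1047 FPKM.

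The human S100 members lie on the same arm of chromosome 1. Promoters are shown for 3 of them and for ANXA1. All 4 genes were higher in TALL104, as were 9 of the 10 members, but by very different amounts. The windows of S100A6, LGALS9 and ANXA2 overlap exons and are not shown. The LGALS3 window, which overlaps no exon and held 3 GC boxes, is not shown either. In hg19, S100A10 spans positions 151955391 to 151966335, S100A11 positions 152004982 to 152020383, S100A6 positions 153507075 to 153508720 and S100A4 positions 153516089 to 153522612, all on the minus strand. ANXA1 spans 75766781 to 75785309 on the plus strand of chromosome 9. The sequences are the 250 bases before the RefSeq start, written 5′ to 3′ on the gene's strand and placed in hg19 by an exact match. None of these windows overlaps an annotated exon, and those of S100A11 and S100A4 lie inside the span of longer annotated transcripts. They lie at chr1:151966336-151966585 (S100A10), chr1:152009481-152009730 (S100A11), chr1:153518283-153518532 (S100A4) and chr9:75766531-75766780 (ANXA1). Capitals mark matches, on either strand, to a GC box, a TATA box, an AP-1 site or an ETS core.
S100A10: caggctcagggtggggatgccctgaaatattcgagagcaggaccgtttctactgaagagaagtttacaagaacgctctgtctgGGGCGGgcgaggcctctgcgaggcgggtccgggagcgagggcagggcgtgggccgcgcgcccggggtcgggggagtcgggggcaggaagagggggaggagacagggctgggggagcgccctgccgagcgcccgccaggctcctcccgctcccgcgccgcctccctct
S100A11: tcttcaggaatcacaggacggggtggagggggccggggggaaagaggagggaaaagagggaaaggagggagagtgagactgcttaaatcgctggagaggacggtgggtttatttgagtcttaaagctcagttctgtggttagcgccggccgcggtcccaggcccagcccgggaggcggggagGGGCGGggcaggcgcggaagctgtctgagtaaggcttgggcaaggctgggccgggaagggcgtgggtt
S100A4: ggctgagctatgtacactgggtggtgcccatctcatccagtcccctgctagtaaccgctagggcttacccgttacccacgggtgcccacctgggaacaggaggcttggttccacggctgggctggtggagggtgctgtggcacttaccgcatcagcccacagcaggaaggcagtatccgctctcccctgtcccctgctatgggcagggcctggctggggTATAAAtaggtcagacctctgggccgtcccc
ANXA1: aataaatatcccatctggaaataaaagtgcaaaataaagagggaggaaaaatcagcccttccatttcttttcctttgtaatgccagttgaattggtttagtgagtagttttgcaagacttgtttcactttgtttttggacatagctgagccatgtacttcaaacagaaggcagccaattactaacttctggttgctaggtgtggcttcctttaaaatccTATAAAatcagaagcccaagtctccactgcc

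The S100A4 and ANXA1 windows each held 1 TATA box (searched as TATAAA) at position -31 from the start, a motif found in 10.7% of the 35116 RefSeq promoter windows of this length. GC boxes, searched as GGGCGG, were found once each in the S100A10 window, at -167, and in the S100A11 window, at -68, against 42.6% of all windows. No match was found in these 4 windows to the AP-1 site TGANTCA, which 6.57% of all windows hold. The same was so for the ETS core GGAAGT, which 19.5% of all windows hold. These absences hold for the windows shown and not for all members. Of the windows not shown, that of ANXA2 held 1 AP-1 site at -127, 1 TATA box at -31 and 3 GC boxes. The LGALS9 window held 2 ETS cores, and that of S100A6 held 3 GC boxes. No 2 matches overlapped in the 4 windows shown. They held 24 CpG dinucleotides for S100A10, 15 for S100A11, 7 for S100A4 and 0 for ANXA1, beside a median of 11 over all windows. Any link between these motifs and the ratios between the lines was not tested. A match is a description of letters and names no bound factor.

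LGALS1 encodes galectin-1, a small lectin that works as a dimer and is known for binding CD45, CD43 and CD7 on T cells. The human gene (chromosome 22, 38071643 to 38075809, plus strand, hg19) stood at 4.39 FPKM in Jurkat (3.76 to 5.11, 168 reads) and at 229 FPKM in TALL104 (224 to 235, 7146 reads). This was a 52.2-fold difference (44.8 to 61.2), a log2 ratio of -5.42. Among detected genes it moved from percentile 29 in Jurkat to 99.2 in TALL104, where 84 genes were higher. Lgals1 (chromosome 15, 78926725 to 78930465, plus strand, mm10) was at 1047 FPKM in EL4 (1035 to 1060, 26934 reads) and 1.73 FPKM in IVA12 (1.21 to 2.41, 35 reads). The mouse ratio was 605-fold (435 to 869), the log2 ratio 8.58. With 30 genes above it in EL4, at percentile 99.7, it was the highest of the 10 genes there, and it fell to percentile 7.23 in IVA12. Among all genes above 0 FPKM the percentiles were 59 in Jurkat and 40.1 in IVA12. In both pairs the gene was thus near the top of 1 line and far lower in the other.

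LGALS3 encodes galectin-3, the chimera-type galectin with a single sugar-binding domain and a long N-terminal tail. It had 0 reads in Jurkat, a level below 0.0361 FPKM, and 1.31 FPKM in TALL104 (1.05 to 1.62, 89 reads), at least 36.4-fold higher. The gene lies on chromosome 14 at 55590828 to 55612141 (plus strand, hg19). Lgals3 had 0 reads in EL4 and 3 reads in IVA12, 0.0639 FPKM, and no fold was taken. It was the lowest of the 10 human genes in TALL104 and was near the limit of detection in both mouse lines.

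LGALS8 encodes galectin-8, a galectin with a pair of linked sugar-binding domains that marks damaged vesicles for autophagy. Its level was 6.62 FPKM in Jurkat (6.35 to 6.90) and 22.4 FPKM in TALL104 (21.8 to 22.9), a 3.38-fold difference (3.22 to 3.55) and a log2 ratio of -1.62. Lgals8 was at 14.9 FPKM in EL4 (14.2 to 15.6) and 4.05 FPKM in IVA12 (3.65 to 4.48), 3.67-fold apart (3.28 to 4.11), a log2 ratio of 1.65. Of the 10 genes it was 1 of 3 detected in all 4 libraries, with LGALS1 and LGALS9. The gene overlaps HEATR1 on the opposite strand in both species, and 20.8% of the windows of 1 read's length in human LGALS8 exons (read-length windows) also occur in other genes. HEATR1 went the other way, at 24.7 FPKM in Jurkat and 13.4 FPKM in TALL104. Heatr1 was at 35.7 FPKM in EL4 and 54.9 FPKM in IVA12. Since the strand setting of the counting is not stated, LGALS8 values are uncertain to that extent.

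LGALS9 encodes galectin-9, another galectin with linked domains, known as a ligand of TIM-3, the product of HAVCR2. It was the 1 member higher in Jurkat, at 9.23 FPKM (8.81 to 9.66) against 1.58 FPKM in TALL104 (1.39 to 1.79), 5.84-fold (5.12 to 6.68), with a log2 ratio of 1.99. The paralogues LGALS9B and LGALS9C went the other way: LGALS9B, named after its values were seen, was at 0.280 FPKM in Jurkat and 3.25 FPKM in TALL104, and LGALS9C was at 0.127 and 6.24 FPKM. The 3 genes summed to 9.63 FPKM in Jurkat and 11.1 FPKM in TALL104, and LGALS9 held 95.8% of that sum in Jurkat and 14.3% in TALL104. On FPKM + 1 the log2 ratio of the sums was -0.18, which passed 1.5-fold in neither direction. Of the read-length windows of LGALS9, 5.62% also occur in other genes, and how such reads were counted is not stated. Lgals9 was at 199 FPKM in EL4 (195 to 202) and 12.3 FPKM in IVA12 (11.4 to 13.3), 16.1-fold (14.9 to 17.4), a log2 ratio of 3.90. It was second to Lgals1 among the members in EL4 and the highest member in IVA12, at percentile 55.7 there.

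S100A4 encodes metastasin, which binds non-muscle myosin. Its level was 5.75 FPKM in Jurkat (4.99 to 6.59) and 13.5 FPKM in TALL104 (12.2 to 14.9), a 2.35-fold difference (1.98 to 2.79). S100a4 was at 25.0 FPKM in EL4 (22.8 to 27.3, 469 reads) and had 0 reads in IVA12, at least 123-fold lower. The log2 ratios were -1.10 and 4.70. For the mouse gene, 41.8% of its read-length windows are shared with the overlapping gene Gm42674, which was at 0.0697 FPKM in EL4 and 0 reads in IVA12.

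S100A6 encodes calcyclin, a partner of the protein made by CACYBP. It had 0 reads in Jurkat and 8.07 FPKM in TALL104 (7.04 to 9.20, 222 reads), at least 90.8-fold higher. S100a6 was at 58.5 FPKM in EL4 (56.3 to 60.9, 2573 reads) and 0.0289 FPKM in IVA12, which is 1 read, for a ratio of 2024 (363 to 79965). The log2 ratios on FPKM + 1 were -3.18 and 5.85. Like S100A4, the gene was near absent from 1 line of the mouse pair, but S100A4 was still detected in Jurkat where S100A6 had no read.

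S100A10 encodes p11, the S100 protein that lacks a working calcium site and forms a complex with ANXA2 at the plasma membrane. It stood at 11.6 FPKM in Jurkat (10.7 to 12.6) and 46.7 FPKM in TALL104 (44.7 to 48.8), 4.03-fold apart (3.68 to 4.41), a log2 ratio of -1.92. S100a10 had 0 reads in EL4 and 4.70 FPKM in IVA12 (3.96 to 5.53, 144 reads), at least 61.0-fold higher in IVA12, a log2 ratio of -2.51. It was the 1 mouse member higher in the B-lineage line, while its partner gene Anxa2 went the other way there. In the human pair the partners moved together.

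S100A11 encodes calgizzarin, which binds the N-terminus of ANXA1. It showed the widest gap between the human lines, with 0.211 FPKM in Jurkat (0.0686 to 0.493, 5 reads) and 222 FPKM in TALL104 (215 to 229, 4276 reads). The ratio was 1049 (449 to 3234) and the log2 ratio -7.52. In TALL104, 87 genes were higher and it was second among the members to LGALS1. S100a11 had 0 reads in both mouse lines, which allows up to 0.183 FPKM in EL4 and 0.232 FPKM in IVA12. Of the mouse gene's read-length windows, 33.8% also occur in pseudogenes, and the others, which no other gene shares, had no read either.

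ANXA1 encodes annexin A1, known for its part in the resolution of inflammation through formyl peptide receptors. It was the highest member in Jurkat, at 37.3 FPKM (36.3 to 38.2), and stood at 70.6 FPKM in TALL104 (69.1 to 72.0), 1.89-fold higher (1.83 to 1.96), with a log2 ratio of -0.90. That was the smallest human gap of the 10. Anxa1 was at 42.9 FPKM in EL4 (41.5 to 44.3, 3595 reads) and 0.0152 FPKM in IVA12, which is 1 read, a ratio of 2828 (507 to 111715) and a log2 ratio of 5.43. The 3 T-cell lines held the gene between percentile 86.4 and 96.3 of detected genes, and IVA12 held almost none.

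ANXA2 encodes annexin A2, which links membranes to actin and to S100A10. Its level was 8.11 FPKM in Jurkat (7.67 to 8.58) and 36.2 FPKM in TALL104 (35.1 to 37.3), 4.46-fold (4.19 to 4.75), a log2 ratio of -2.03. Anxa2 was at 166 FPKM in EL4 (164 to 168) and 0.360 FPKM in IVA12 (0.25 to 0.504, 34 reads), 460-fold (329 to 665), a log2 ratio of 6.94. Human ANXA2 shares 2.04% of its windows with the processed pseudogene ANXA2P2. EL4 was the line with much Anxa2 and no read of S100a10, while both genes were detected in Jurkat and TALL104.

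**Figure D2:**
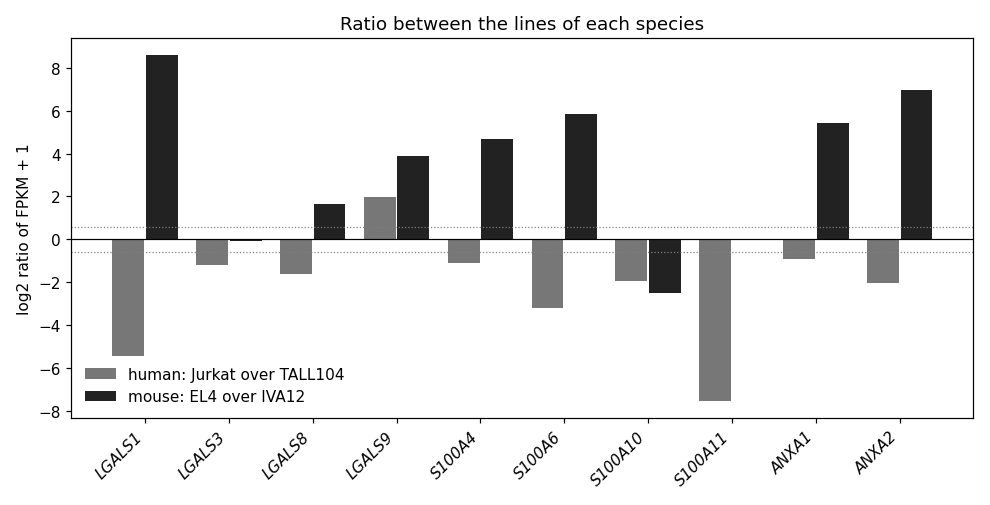
Log2 ratio of FPKM + 1 for each member, grey for Jurkat over TALL104 and black for EL4 over IVA12; dotted lines mark 1.5-fold. Bars point down for higher in TALL104 or IVA12: LGALS9 is the 1 human gene pointing up, at 1.99, and S100a10 the 1 mouse gene past the lower line, at -2.51.

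By symbol, 6 of the 10 genes were higher in TALL104 and also in EL4: LGALS1, LGALS8, S100A4, S100A6, ANXA1 and ANXA2. Of the 15552 symbols shared by both species, 4.02% were higher in these same lines, and nothing was read from the gap, since the symbols were selected on these values. The pairs have no library in common, but they compare different kinds of cells, so these are 2 separate descriptions. The leading gene of each family differed by line. LGALS1 made up 90.1% of the 4 galectins' FPKM in TALL104 and 83.1% in EL4, whereas LGALS9 led in Jurkat with 45.6% and in IVA12 with 67.9%. The S100 members were led by S100A11 in TALL104 (76.5% of the 4 genes), by S100A10 in Jurkat (66.1%), by S100a6 in EL4 (70.1%) and by S100a10 in IVA12 (99.4%). ANXA1 led the annexin pair in both human lines, at 82.1% and 66.1%, and Anxa2 led in both mouse lines.

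Within Jurkat the order of levels ran ANXA1, S100A10, LGALS9, ANXA2, LGALS8, S100A4, LGALS1 and S100A11, then S100A6 and LGALS3 with 0 reads. The intervals of LGALS9 and ANXA2 and of LGALS8 and ANXA2 did not overlap, while those of LGALS8 and S100A4 did. S100A4 and LGALS1 also overlapped, so the order of these neighbours is not resolved. In TALL104, LGALS1 and S100A11 overlapped in their intervals at the top, and LGALS3 and LGALS9 at the bottom. IVA12 members were in the order Lgals9, S100a10, Lgals8 and Lgals1 above 1 FPKM, with S100a10 and Lgals8 overlapping.

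Over 15552 genes with a symbol shared by both species, the genes closest to each member in log2(FPKM + 1) over the 4 libraries were found by Euclidean distance, as a description only. For LGALS1 the closest were SLC2A3, a glucose transporter gene (distance 3.06), and ANXA2 (3.94). For S100A11 they were TC2N (0.43) and KIT (0.57), both above 100 FPKM in TALL104 alone, at 175 and 326 FPKM. S100A10 was closest to CTSC, the cathepsin C gene (0.21), and ANXA1 to EMB (0.55), while ANXA2 had LAT (1.76) and LBH (1.77) as its nearest genes. The distances for LGALS8 (DGLUCY, 0.27), S100A4 (KLHL6, 0.59), S100A6 (ACTA2, 1.02) and LGALS9 (B3GALNT2, 1.24) are of the same kind, and LGALS3 was nearest to CIDEB (0.05), with both at or near 0 in 3 lines.

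The other genes of the families were mostly low. Beside the human counts that follow, 11.4% of all human genes were higher in TALL104 and 13.8% in Jurkat. Of human genes detected in either line, the shares were 28.4% and 34.2%. In the human pair, 3 of 13 other genes listed with the galectins (LGALS9B, LGALS9C and the ligand gene LGALS3BP) were higher in TALL104, 1 in Jurkat and 9 passed in neither direction, with a median log2 ratio of 0.00. The 1 in Jurkat was LGALSL, a galectin-related gene, at 3.69 FPKM against 0.00881 FPKM in TALL104 (1 read). It was chosen after its values were seen. LGALS3BP, a secreted glycoprotein that galectins bind, was at 19.4 FPKM in Jurkat and 68.6 FPKM in TALL104. Of 17 other genes listed with the S100 genes, 4 (S100A13, S100B, S100P and S100Z) were higher in TALL104 and 0 in Jurkat. S100Z, at 1.12 and 8.14 FPKM, had the widest of these gaps on FPKM + 1. S100PBP was at 9.77 and 15.1 FPKM and did not pass 1.5-fold on FPKM + 1.

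Of 10 other annexins in the human lines, 4 were higher in TALL104, 0 in Jurkat and 6 passed in neither direction. Over all human genes, 11.4% were higher in TALL104 and 13.8% in Jurkat. Of human genes detected in either line, as were 5 of these 10, the shares were 28.4% and 34.2%. ANXA3, at 0.309 FPKM in Jurkat and 0.0483 FPKM in TALL104, was 6.40-fold higher in Jurkat (2.91 to 16.7). It did not pass on FPKM + 1. ANXA5, the phosphatidylserine-binding annexin used to stain dying cells, was at 10.4 FPKM in Jurkat and 46.6 FPKM in TALL104 (log2 ratio -2.06). ANXA4 was at 1.31 and 5.03 FPKM, ANXA7 at 32.3 and 53.6 FPKM, and ANXA11 at 11.7 and 23.0 FPKM. ANXA6 was the highest annexin of both lines, at 68.8 and 89.8 FPKM, and did not pass (log2 ratio -0.38). Its gap of 1.30-fold was smaller than that of any member.

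In the mouse pair, of 6 other genes listed with the galectins, 1 (Lgals4, at 1.36 and 0.376 FPKM) was higher in EL4 and 2 in IVA12. Over all mouse genes, 9.75% were higher in EL4 and 11.2% in IVA12. Of mouse genes detected in either line, 23.8% and 26.5% were. Lgalsl had 0 reads in EL4 and 15.5 FPKM in IVA12, at least 685-fold higher, which was above every galectin member in that line. Lgals3bp was at 30.6 FPKM in EL4 and 62.1 FPKM in IVA12. Among 14 other genes listed with the S100 genes, S100a13 was the 1 that passed, at 20.5 FPKM in EL4 and 0.830 FPKM in IVA12. Its protein helps release growth factors. S100pbp was at 9.70 and 7.07 FPKM. Of 10 other annexins, 3 were higher in EL4 and 2 in IVA12. Anxa5 (60.8 and 12.3 FPKM), Anxa6 (126 and 50.2 FPKM) and Anxa11 (17.7 and 2.20 FPKM) were the 3 in EL4, and the 2 in IVA12 were Anxa7, at 21.4 and 33.3 FPKM, and Anxa4, with 0 reads in EL4 and 3.01 FPKM in IVA12. IVA12 thus kept Anxa6 and Anxa7 as its main annexins, with Anxa1 and Anxa2 below 1 FPKM.

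**Figure D3:**
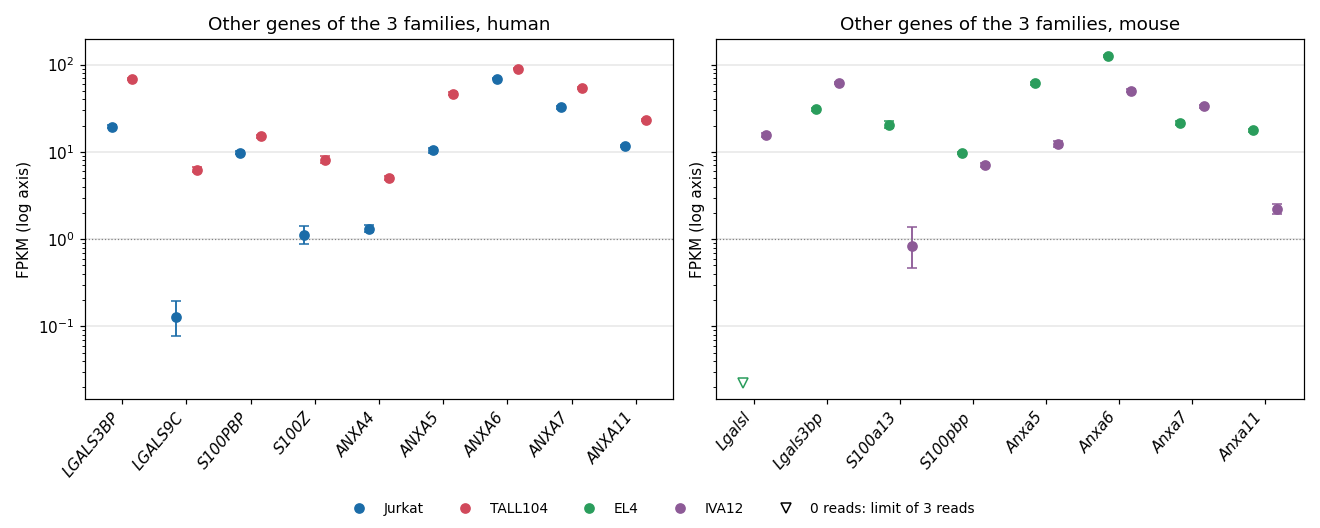
FPKM on a log axis of the other genes listed with the families, LGALS3BP and S100PBP among them, that reached 5 FPKM in a line of the species. Bars are exact 95% counting intervals and the open triangle marks 0 reads at the level of 3 reads. TALL104 lies above Jurkat for each gene shown, while the mouse lines change order from gene to gene. LGALS9C, S100Z and ANXA4 reached 5 FPKM in TALL104 alone, so the cut itself fixed their direction. The same holds for Lgalsl, which reached it in IVA12 alone, and for S100a13 and Anxa11, which did so in EL4 alone. LGALSL, higher in Jurkat at 3.69 FPKM, lay under the cut.

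Genes for surface and vesicle proteins that galectins bind, for enzymes that build or cap the sugars, and for cytosolic factors at damaged membranes (TSG101, PDCD6IP, TRIM16 and CALCOCO2) were taken as 1 list. In the human pair 15 of 24 were higher in TALL104 and 3 (CD2, ST6GAL1 and TRIM16) in Jurkat. Over all human genes, 11.4% were higher in TALL104 and 13.8% in Jurkat. Of the genes detected in either line, as were 22 of the 24, the shares were 28.4% and 34.2%. The median log2 ratio of the list was -0.74, beside 0.00 over all genes and 0.10 over the detected genes. The lists were chosen with earlier results of these data known, so nothing was read from these gaps. CD44, a hyaluronan receptor, was at 0.0257 FPKM in Jurkat (9 reads) and 76.4 FPKM in TALL104. ST3GAL1, a sialyltransferase that caps O-glycans, was at 4.47 and 57.4 FPKM, 12.8-fold apart (12.1 to 13.6). HAVCR2, the TIM-3 gene, was at 0.348 FPKM in Jurkat and 8.93 FPKM in TALL104. In the mouse pair 8 of 24 were higher in EL4 and 5 (Cd44, Itgb1, Mgat1, Mgat2 and St3gal1) in IVA12. Over all mouse genes, 9.75% were higher in EL4 and 11.2% in IVA12. Of mouse genes detected in either line, the shares were 23.8% and 26.5%. The median log2 ratio of the list was 0.13, beside -0.04 over the detected genes. Ptprc, which encodes CD45, was at 49.1 FPKM in EL4 and 2.19 FPKM in IVA12. Itgb1, the integrin beta-1 gene, was at 0.0229 FPKM in EL4 (3 reads) and 34.0 FPKM in IVA12. Trim16, whose product acts with galectin-3 at damaged vesicles, was at 6.16 FPKM in EL4 and 0.00866 FPKM in IVA12 (1 read). Cd44, named after its values were seen, ran from 22.4 FPKM in EL4 to 96.5 FPKM in IVA12. More Cd44 thus went with less Lgals1 between the mouse lines. Between the human lines it was the reverse, since TALL104 had more CD44 and also more LGALS1. With 1 library per line, nothing was read from either pattern.

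The list of S100 and annexin partners held 22 genes for cytoskeletal targets, receptors and plasminogen factors. Of these, 6 were higher in TALL104 and 3 (CACYBP, PLAUR and ACTG1) in Jurkat. In the mouse pair, 7 were higher in EL4 and 2 (Tlr4 and Cacybp) in IVA12. The shares over all human genes were 11.4% in TALL104 and 13.8% in Jurkat. Over all mouse genes they were 9.75% in EL4 and 11.2% in IVA12. Of the list, 15 human and 14 mouse genes were detected in either line. Among all genes so detected, 28.4% were higher in TALL104 and 34.2% in Jurkat, and 23.8% in EL4 and 26.5% in IVA12. The median log2 ratio of the list was -0.00 for Jurkat over TALL104 and 0.23 for EL4 over IVA12. AHNAK, a giant scaffold protein that the ANXA2 and S100A10 complex binds, was at 3.70 FPKM in Jurkat and 92.1 FPKM in TALL104, 24.9-fold (23.9 to 26.0). Ahnak was at 11.7 FPKM in EL4 and 0.0491 FPKM in IVA12. VIM, the intermediate filament gene, was at 105 and 295 FPKM in the human lines, and Vim at 99.1 and 5.65 FPKM in the mouse lines. In both pairs AHNAK and VIM were higher in the line with more ANXA2. They were named for the large ratios of this list in these same libraries, so nothing was read from this. PLAUR and ACTG1 were lower in TALL104, the human line with more ANXA2. CACYBP, the S100A6-binding gene, went the other way in the human pair, at 63.5 FPKM in Jurkat and 24.7 FPKM in TALL104. Tlr4 was at 0.0504 FPKM in EL4 and 4.78 FPKM in IVA12.

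**Figure D4:**
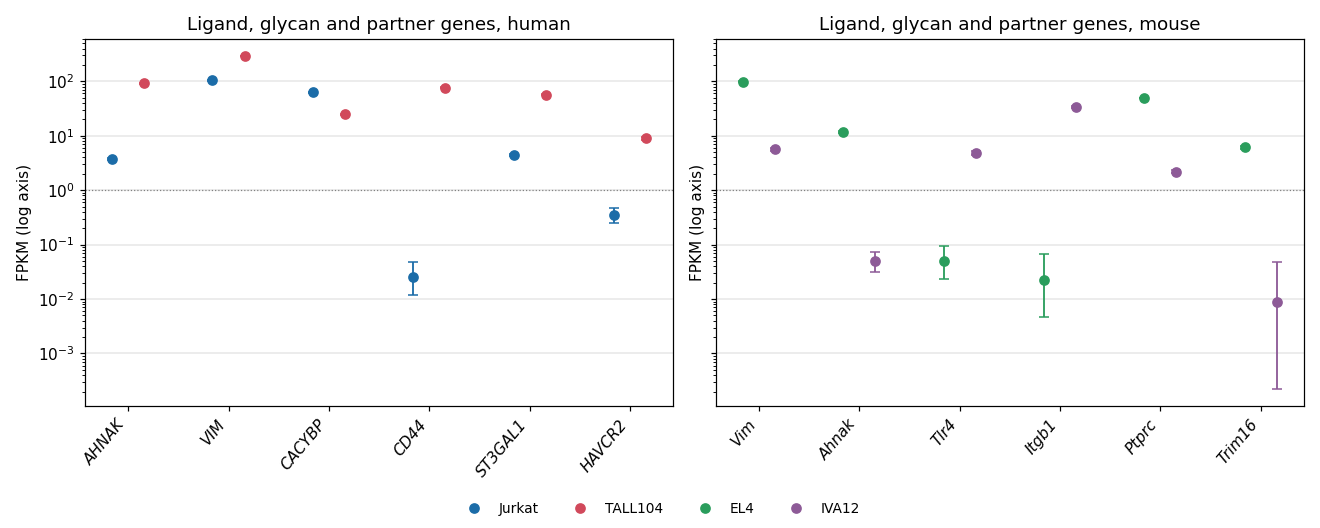
FPKM on a log axis for the 3 most different genes of each partner list and pair, the S100 and annexin partners first and then the galectin ligand and glycan genes, with exact 95% counting intervals. AHNAK and VIM lie higher in TALL104 and in EL4, while CACYBP is lower in TALL104 and Itgb1 is lower in EL4.

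Several members are strongly expressed by stromal, myeloid and epithelial cells, so markers of those cells were read in the same libraries. Of 6 stromal markers (collagen genes, DCN, LUM and PDGFRB), 0 reached 1 FPKM in any line. Myeloid markers summed to 1.48 FPKM in Jurkat and 97.6 FPKM in TALL104, of which FCER1G, also a signalling chain of cytotoxic lymphocytes, made 94.5 FPKM. In the mouse lines they summed to 27.6 FPKM in EL4, with Fcer1g at 23.6 FPKM, and to 22.8 FPKM in IVA12, with Cd68 at 22.5 FPKM. CSF1R had 0 reads in all 4 lines, and LYZ, CD14 and MPO stayed below 1 FPKM in the human lines. ITGAM was at 0.0406 FPKM in Jurkat and 1.47 FPKM in TALL104, and CD68 at 1.05 and 1.42 FPKM. The part of cells with these markers in the TALL104 values was not tested. Epcam was at 69.7 FPKM in IVA12 and 0 reads in EL4, whereas Krt8 had 0 reads in both, and 0 of 4 epithelial markers reached 1 FPKM in the human lines.

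All 8 T-cell markers were higher in EL4, as were 7 members. Relative to EL4, IVA12 held 0.165% of Lgals1, 0.217% of Anxa2, 0.0354% of Anxa1 and 0.0494% of S100a6, beside 0.0152% of Cd3d, 0.178% of Cd5 and 0.546% of Lck. Lgals9 was at 6.21% and Lgals8 at 27.2%. Of the 8 T-cell markers, 7 lay between 0.0152% and 0.651% and Cd2 was at 56.1%. The part of any T-cell RNA in the IVA12 library was not tested.

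No read-length window of any member occurs in a gene of the other species, and reads of the other species' members were few. The mouse members had 11 reads in Jurkat and 10 in TALL104, and the human members 7 in EL4 and 56 in IVA12. Against these, the human members' highest own-line levels sum to 659 FPKM and the mouse members' to 1558 FPKM.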

How the data were processed

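The authors deposited 1 table of FPKM values for 4 libraries, 1 per cell line, with human and mouse genes together and 0 further columns per library. Per the study's methods, stranded messenger RNA libraries were sequenced as paired 101-base reads, aligned with STAR 2.5.1b to a combined hg19 and mm10 reference of Cell Ranger 1.2.0, and counted with featureCounts 1.6.3. The gene lengths behind the FPKM, the strand setting and the handling of multi-mapping reads are not given in the sources used here. Reads were recovered by solving for the library total and gene length (up to 300000 bases, relative tolerance 1e-11), which left 0 values that were not whole reads. The recovered reads summed to between 98.0% and 99.3% of the totals. The length solved for matched the annotation's exon length in 22.2% of genes for human and 73.0% for mouse. Elsewhere a missed common factor may leave intervals too wide.

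No count model was fitted, since each needs replicates. Ratios used FPKM + 1, and a gene was counted above 1.5-fold. Counting intervals were exact Poisson for a level and exact conditional binomial for a ratio, and treat reads as independent molecules. Gene positions came from GENCODE v44lift37 and vM21 and promoter windows from RefSeq. The tools were Python 3.11.15, NumPy 2.4.6, pandas 2.3.3, SciPy 1.17.1 and matplotlib 3.10.9, and the steps were tested on simulated data. There, reads were exact for 100% of genes with reads when the true lengths were the annotated ones and were supplied. Without supplied lengths they were exact for 83.7% of human and 84% of mouse genes. All members were named, other family genes at 5 FPKM or more in a line, the 3 partner genes with the largest absolute log2 ratio per list and pair, and the 2 nearest genes. Genes named beyond this rule were chosen after their values were seen. The members and lists were chosen with earlier results of these data known. Alternatives were other pseudocounts, scalings, thresholds, a minimum level and the counting interval.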

Additional observations from a re-analysis of the deposited data

Results flagged for a closer look

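Reads of the other species' members appeared in every library, above the limit that a count of 0 allows, although each line holds 1 species. The mouse members summed to 0.185 FPKM in Jurkat and 0.229 FPKM in TALL104, with Anxa2 the gene above 3 reads in both, at 0.0308 FPKM and 0.0378 FPKM. The human members summed to 0.117 FPKM in EL4 and 1.56 FPKM in IVA12. In IVA12 all 10 human members had reads, and 7 had more than 3: S100A11 at 0.465 FPKM, LGALS1 at 0.396 FPKM, S100A4 at 0.231 FPKM, S100A10 at 0.128 FPKM, ANXA1 at 0.0780 FPKM, LGALS3 at 0.0661 FPKM and ANXA2 at 0.0628 FPKM. Over all genes, those of the other species held 0.175% of the FPKM in IVA12 and between 0.0379% and 0.0474% in the other libraries. Where these reads came from was not tested.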

How the results depend on the processing

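Of 104 alternative counts, 88 stayed within 1.5 times the reported one. No called log2 ratio of a member changed sign under the 5 alternatives for it. The size was less stable, and of 100 alternative log2 ratios of members 36 moved by more than the counting spread. With a pseudocount of 0.01, S100A6 went from -3.18 to -9.66 and S100a4 from 4.70 to 11.3. The counts of human members (9 and 1) and of mouse members higher in EL4 (7) stayed within that range. Mouse members higher in IVA12 went from 1 to 2 with pseudocounts of 0.1 and 0.01, the added gene being Lgals3 with 3 reads. At 5 FPKM, 1 member instead of 4 was detected in IVA12. Other family genes higher in Jurkat went from 1 to 5 with a pseudocount of 0.1, to 9 with 0.01 and to 4 by counting interval, and those higher in EL4 from 5 to 9, 11 and 8. At 2-fold, other family genes higher in TALL104 went from 11 to 7 and in IVA12 from 4 to 2, and partner genes from 6 to 3 in Jurkat, from 15 to 9 in EL4 and from 7 to 4 in IVA12. By counting interval, partner genes numbered 10 in Jurkat and 24 in EL4. Percentiles among genes above 0 FPKM moved by over 1 point in 23 of 28 cases, for LGALS1 in Jurkat from 29 to 59. For that gene 7705 genes lay higher on both scales, while the genes ranked went from 10857 to 18813. The causes of the moves in counts and log2 ratios were not tested. No paired analysis was possible because each line has 1 library.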

Other observations

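The S100 genes of inflammatory myeloid cells were nearly silent in these lines. S100A8 and S100A12, which encode calgranulins, had 0 reads in Jurkat and TALL104, and S100A9 was at 0.648 FPKM in Jurkat (13 reads) and 0.122 FPKM in TALL104 (2 reads). S100a8 and S100a9 had 0 reads in EL4 and IVA12. S100P was at 0.112 FPKM in Jurkat and 1.57 FPKM in TALL104, and S100B at 0.397 and 1.53 FPKM.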
